A study of Homo sapiens with 2 samples.

Results

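The comparison is of OVCAR5 tumour cells that behaved as if exposed to interferon gamma (IFN-gamma) together with tumour necrosis factor (TNF), called here the both-cytokine side, with cells that behaved as if exposed to TNF alone, called the TNF side. Each cell carried a pair of antibody hashtags, and each of 15 pairs was taken as 1 hashed sample. A pair was assigned when the second most counted hashtag of a cell reached 10 counts and was no less than 3 times the third. The both-cytokine side was made of the pairs HTO2+HTO7, HTO3+HTO6, HTO3+HTO9, HTO4+HTO6 and HTO4+HTO9, and the TNF side of HTO2+HTO6, HTO2+HTO10, HTO3+HTO5, HTO3+HTO8 and HTO4+HTO8. Values for 5 hashed samples are always given in these orders. The comparison held 2196 cells, 919 on the both-cytokine side and 1277 on the TNF side, of 3538 kept cells, of which 3144 had a clear pair. The other 5 hashed samples, with 948 cells, are given beside them as a reference. At the threshold of the pair rule, 39 kept cells had a second hashtag 3 to under 4 times the third, and 95 kept cells just outside it had 2 to under 3 times.

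No label says which hashtag pair received which treatment. The sides were chosen from the measured level of IFN-gamma target genes and from the 15 entries in the labels, which are 5 unstimulated, 5 with TNF at 10 ng/ml and 5 with IFN-gamma at 100 ng/ml together with that dose of TNF, each for 6 h. Because the readout itself chose the sides, every value below is a description, and no significance test between the sides was run. The labels list no entry with IFN-gamma alone, so a gene's difference between the sides cannot be divided into an effect of IFN-gamma by itself and an effect of the combination. OVCAR5 is a human ovarian carcinoma cell line. Here it carried a reporter that senses IFN-gamma, was grown as tumours in NSG-b2m-/- mice, and was digested with Liberase and DNase before the cytokines were added ex vivo. Cells of 5 tumours were stained, pooled and sorted for cyan fluorescent protein, which per the labels marks bystander tumour cells, and then run as 1 droplet pool. All hashed samples share that pool, and which tumour gave which pair is not given in the labels.

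IFN-gamma binds its receptor on the cell surface and activates the kinases JAK1 and JAK2. The signal acts on GAS elements in DNA, and factors that it induces, such as IRF1, act through ISRE elements. TNF binds its receptor and frees NF-kB from its inhibitor, and NF-kB then induces chemokines, survival genes and its own inhibitors. Some promoters, that of CXCL10 among them, are known to hold sites for both pathways.

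The promoters of 4 genes are shown because the results turn on them: CXCL10 and ICAM1 were higher on the both-cytokine side, and CXCL8 and CCL20 were lower. Each run is the 250 bases before the start of the RefSeq gene on the strand of the gene in GRCh38.p14, and capitals mark a match to a GAS motif (TTCNNNGAA), an ISRE motif (GAAA, any 2 bases, GAAA) or a 10-base kB motif, searched on both strands. The CXCL10 promoter lies at chr4:76023498-76023747 on the minus strand, ICAM1 at chr19:10270870-10271119 on the plus strand, CXCL8 at chr4:73740319-73740568 on the plus strand and CCL20 at chr2:227813592-227813841 on the plus strand.
CXCL10: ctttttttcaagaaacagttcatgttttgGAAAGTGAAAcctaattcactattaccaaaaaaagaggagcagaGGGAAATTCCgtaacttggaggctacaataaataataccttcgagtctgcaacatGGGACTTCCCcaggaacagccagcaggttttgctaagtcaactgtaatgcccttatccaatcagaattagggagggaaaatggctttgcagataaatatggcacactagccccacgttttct
ICAM1: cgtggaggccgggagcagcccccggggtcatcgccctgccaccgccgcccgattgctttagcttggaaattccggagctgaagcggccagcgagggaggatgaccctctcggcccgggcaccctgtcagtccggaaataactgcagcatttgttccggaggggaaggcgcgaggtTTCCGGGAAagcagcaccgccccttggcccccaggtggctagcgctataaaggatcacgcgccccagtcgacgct
CXCL8: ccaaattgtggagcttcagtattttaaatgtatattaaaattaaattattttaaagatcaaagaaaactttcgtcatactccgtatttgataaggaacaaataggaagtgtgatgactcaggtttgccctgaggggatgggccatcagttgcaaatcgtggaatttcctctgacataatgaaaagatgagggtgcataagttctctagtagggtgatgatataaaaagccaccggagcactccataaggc
CCL20: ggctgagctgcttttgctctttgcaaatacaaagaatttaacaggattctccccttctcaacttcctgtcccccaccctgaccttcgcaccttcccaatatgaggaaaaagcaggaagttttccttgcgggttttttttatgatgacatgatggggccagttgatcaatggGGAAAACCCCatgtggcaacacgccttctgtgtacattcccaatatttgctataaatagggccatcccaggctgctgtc
The CXCL10 promoter held an ISRE match that began 221 bases before the start and kB matches that began 177 and 122 bases before it. The ICAM1 promoter held a GAS match 75 bases before the start, and the CCL20 promoter a kB match on the opposite strand 79 bases before it. The CXCL8 window held none of the 3 motifs in these letters, and the ICAM1 window held no kB match in them. This says nothing of NF-kB at either gene. Over all 27305 RefSeq windows of 300 bases, which run 50 bases past the start, 7.88% held a GAS match, 3.65% an ISRE match and 10.8% a kB match.

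The 10 hashed samples held 49 to 630 cells and 582102 to 7324691 UMIs each. Median UMIs per cell ran from 10952 to 11881 on the both-cytokine side and from 11095.5 to 12405 on the TNF side, and median mitochondrial shares from 12.2% to 13.6% and from 12.2% to 13.8%. Levels are UMIs per 10000 UMIs of all cells of a hashed sample, counted at the 3' ends of transcripts and not scaled by length. Among 9189 genes with a mean level of at least 0.05 over the 10 hashed samples, a gene was called higher or lower on the both-cytokine side when the 5 levels of the sides did not overlap and their medians differed at least 2-fold. By this rule 290 genes (3.16%) were higher and 139 (1.51%) were lower. At any ratio, 6.03% of the genes lay above without overlap and 9.28% below. The counts within lists below stand against these shares. The median log2 ratio over all genes compared was -0.16, so each ratio below stands against that value.

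The 3 genes that marked the both-cytokine side show what the choice of sides rests on. CXCL10, a chemokine that attracts CXCR3-bearing T cells, stood at 95.9, 93.5, 45.8, 81.3 and 74.6 on the both-cytokine side. Its levels on the TNF side were 1.34, 0.749, 0.0859, 0.377 and 0.236, and 0.129 to 0.558 in the other 5 hashed samples. Every both-cytokine level was thus far above the highest TNF level, with HTO3+HTO9 lowest. IDO1, which breaks down tryptophan, was at 26.2, 33.9, 16.6, 22.5 and 24.7 against 0.29, 0.199, 0.155, 0.143 and 0.105. GBP1, a guanylate-binding protein of cell-autonomous defence, was at 38.2, 37.0, 28.4, 34.9 and 39.7 against 1.92, 1.76, 0.979, 1.37 and 0.972. In both genes the sides lay far apart, and the TNF levels of GBP1 (0.972 to 1.92) were all above those of the other 5 hashed samples (0.451 to 0.861).

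Of the 40 IFN-gamma targets listed, 38 could be compared, and 34 of them were higher and none lower, beside 3.16% of all genes compared that were higher and 1.51% that were lower. Nothing is read from this, since such genes chose the sides. The summed level of the list was 317, 327, 211, 283 and 296 on the both-cytokine side and 34.3, 32.8, 21.8, 39.2 and 30.6 on the TNF side, a ratio of medians of 9.05-fold (log2 3.18). CXCL9, another CXCR3 ligand, was at 2.34, 2.72, 0.802, 1.96 and 1.74 against 0 to 0.0197 on the TNF side, and CXCL11 at 15.5, 15.6, 5.84, 12.6 and 14.1 against 0.20, 0.167, 0.0344, 0.0833 and 0.046. All 3 CXCR3 ligands therefore lay apart, and CXCL9 was by far the least abundant of them in UMIs. The only compared member without a gap was ICOSLG, a costimulatory ligand chosen here after its values were seen, at 0.0751 to 0.252 against 0.145 to 0.22. The other 5 hashed samples held it at 0.0107 to 0.0331, below both sides.

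Genes that carry the IFN-gamma signal were split by role. The receptor chains and JAK1 overlapped between the sides, whereas JAK2 stood at 0.741, 0.743, 0.401, 0.612 and 0.735 against 0.0575, 0.0646, 0.0172, 0.0573 and 0.0657. IRF1, a transcription factor induced by IFN-gamma, was at 39.7, 38.2, 36.6, 41.0 and 42.6 against 3.46, 4.01, 1.84, 3.26 and 3.49. IRF1 was thus among the most abundant members, with a ratio of 11.5-fold, and its TNF levels were above those of the other 5 hashed samples (0.738 to 1.08). CIITA, the master regulator of MHC class II, was at 1.24, 1.12, 0.971, 1.16 and 1.18 against 0 to 0.0475, and the factor BATF2 at 2.56, 2.99, 2.1, 2.77 and 2.83 against 0.0485 to 0.132. Of the 18 genes of this list, all compared, 12 were higher, none was lower, and the list's median log2 ratio was 2.06.

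**Figure D1:**
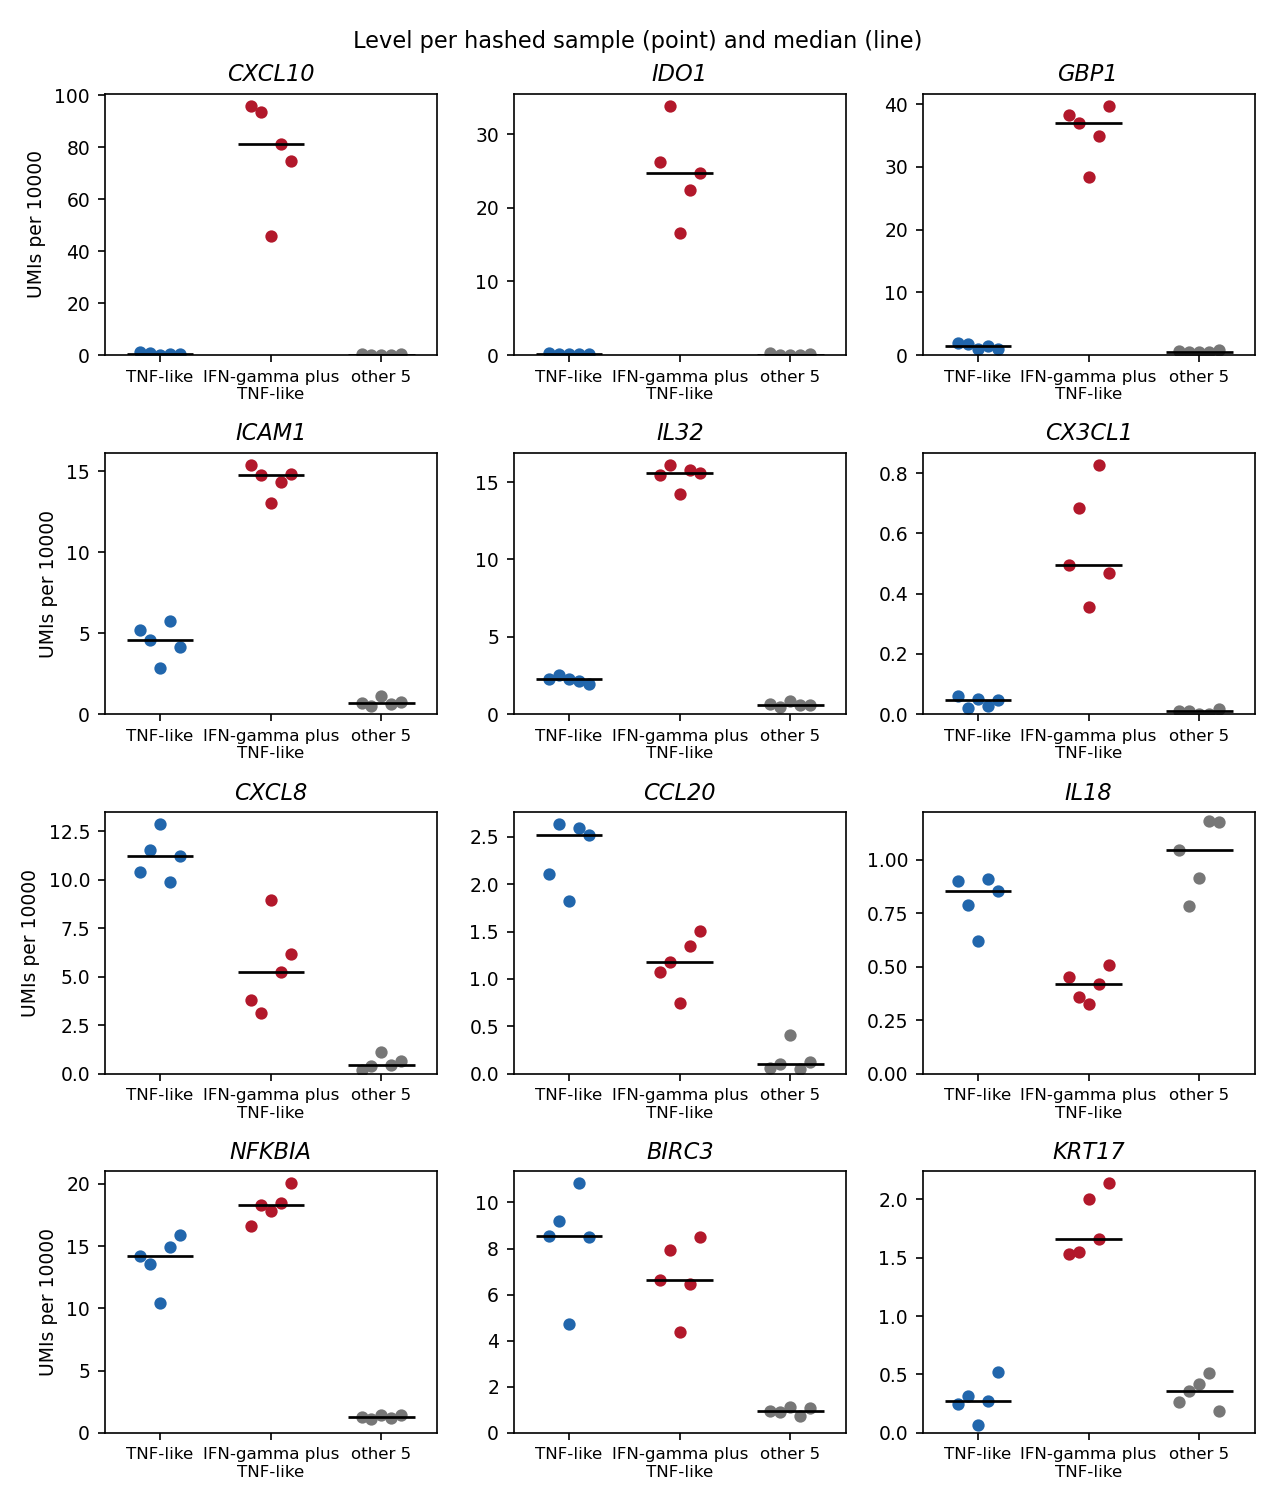
Levels in UMIs per 10000 of 12 genes in each hashed sample, with 5 points for the TNF-like (blue), IFN-gamma plus TNF-like (red) and other 5 (grey) hashed samples, a line at each median and an axis from 0 in each panel. CXCL10, IDO1, GBP1, ICAM1, IL32, CX3CL1 and KRT17 lie higher in red than in blue, CXCL8, CCL20 and IL18 lie lower in red, NFKBIA is slightly higher in red, and BIRC3 overlaps.

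The TNF and NF-kB targets, 110 genes in 8 lists by role, held 88 that could be compared. Of these, 17 were higher on the both-cytokine side, 6 were lower, and 50 overlapped between the sides, where 3.16% of all genes compared were higher and 1.51% lower. At any ratio, 28 of the 88 lay above without overlap and 10 below, beside 6.03% and 9.28% of all genes compared. The summed level of the 110 genes was 214, 226, 193, 202 and 231 on the both-cytokine side and 171, 158, 133, 177 and 171 on the TNF side. The sides did not overlap, the ratio of medians was 1.25-fold, and the other 5 hashed samples, at 47.3 to 64.8, lay below both. The median log2 ratio of the compared members was 0.36, against -0.16 over all genes. A place in these lists does not show that a gene was raised on the TNF side here. Reference levels of TNFSF10, TNFSF13B, CCL5 and IL15, all called higher, overlapped those of the TNF side. They were 0.253 to 0.906, 0.0536 to 0.106, 0 to 0.0531 and 0.0336 to 0.0882 in that order. Those of CX3CL1, IL32 and ICAM1, also higher, lay below the TNF side, at 0 to 0.0177, 0.483 to 0.848 and 0.504 to 1.13. How many of the 17 overlapped in this way was not counted. No called member changed sign under the alternatives tried, but 4 of the 6 lower calls, those of CXCL8, CCL20, IL18 and CSF2, were lost with another scaling. With median-of-ratios size factors, under which the median log2 ratio of all genes was -0.01, 21 members were higher and 2 lower, and over all genes 360 were higher and 66 lower, so that 84.5% of calls were higher in place of 67.6%.

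In the separate list of the receptor complex, 2 of 12 genes were higher and none lower. TNFRSF1A, the main TNF receptor of epithelial cells, overlapped, with 0.868 to 1.12 on the both-cytokine side and 0.795 to 1.08 on the TNF side. TNFRSF1B, the second TNF receptor, stood at 0.616, 0.625, 0.663, 0.692 and 0.601 against 0.305, 0.35, 0.429, 0.272 and 0.25. RBCK1, a subunit of the linear ubiquitin ligase that acts at the receptor, was at 3.79, 3.9, 3.9, 3.96 and 4.18 against 1.76, 1.87, 1.87, 1.93 and 1.82. Its 5 levels on each side lay within a narrow band, and the ratio of medians was 2.09-fold.

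Among 11 NF-kB subunits and kinases only RELA, the main transactivating subunit, was higher, at 1.72, 1.64, 1.46, 1.76 and 2.03 against 0.79, 0.749, 0.67, 0.778 and 0.795. NFKB1, a partner of RELA, was at 1.45 to 1.93 against 1.15 to 1.39, above without overlap but 1.28-fold. The other 9 overlapped between the sides.

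The genes of the NF-kB feedback list were mostly as abundant or slightly more abundant on the both-cytokine side. Not all of them are inhibitors of NF-kB, with TNFAIP2, TNFAIP6 and TNFAIP8 among the exceptions. NFKBIA, which encodes the inhibitor IkB-alpha, stood at 16.6, 18.3, 17.9, 18.5 and 20.1 against 14.2, 13.6, 10.5, 14.9 and 15.9. The sides did not overlap, but the ratio of medians was only 1.29-fold, and the other 5 hashed samples were at 1.12 to 1.47. TNFAIP3, which encodes A20, was at 2.48 to 3.9 against 1.82 to 2.99 and overlapped. Of the 15 genes of this list, CYLD, a deubiquitinase, and TNFAIP8 were higher, at 0.856, 0.979, 0.817, 0.789 and 0.882 against 0.288, 0.345, 0.223, 0.329 and 0.295 and at 0.931, 1.06, 0.694, 0.88 and 1.3 against 0.413, 0.501, 0.258, 0.456 and 0.492. The TNFAIP8 call, at 2.04-fold, was lost at a mitochondrial limit of 15% and without HTO3+HTO6, HTO4+HTO9, HTO2+HTO6 or HTO3+HTO5. TNIP1, a partner of A20, was at 6.12 to 7.72 against 4.76 to 5.54, and N4BP1 at 0.37 to 0.454 against 0.302 to 0.368, both above without overlap and under 2-fold. The other 10, NFKBIB, NFKBIE, NFKBIZ, TNFAIP2, TNFAIP3, TNFAIP6, TNIP2, TNIP3, BCL3 and ZC3H12A, overlapped, with log2 ratios from -0.05 to 0.99. TNFAIP2, the most abundant of these, was at 11.4, 15.8, 6.81, 8.79 and 10.3 against 11.1, 9.35, 6.0, 15.2 and 7.53.

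Of 4 compared chemokines that attract neutrophils through CXCR1 and CXCR2, CXCL8 was lower and the other 3 overlapped. CXCL8, or interleukin 8, stood at 3.8, 3.12, 8.94, 5.25 and 6.17 on the both-cytokine side. On the TNF side it was at 10.4, 11.6, 12.9, 9.87 and 11.3, and in the other 5 hashed samples at 0.17 to 1.09. The sides did not overlap: the both-cytokine levels lay between the reference and the TNF levels, with HTO3+HTO9 nearest to the TNF side. The TNF median was 2.14-fold the both-cytokine median. This call rests on the scaling, because the log2 ratio of -1.10 became -0.94 with median-of-ratios size factors. CXCL1 was at 0.873, 0.902, 1.05, 0.697 and 1.06 against 2.03, 1.47, 0.773, 1.83 and 1.65 and overlapped through HTO3+HTO5, whose level was the lowest of its side. CXCL2 and CXCL3 overlapped, at 0.284 to 0.494 against 0.155 to 0.338 and at 0.853 to 1.26 against 0.515 to 1.06, with log2 ratios of 0.52 and 0.10. The sum of the 6 listed genes was 5.18 to 11.5 against 13.1 to 14.3, without overlap, and most of it was CXCL8.

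Among 7 other chemokines compared, 3 were higher and 1 was lower. CCL20, a ligand of CCR6, was the lower one, at 1.07, 1.18, 0.74, 1.35 and 1.51 against 2.11, 2.63, 1.82, 2.6 and 2.52 and at 0.0475 to 0.408 in the reference. As for CXCL8, the both-cytokine levels lay between the other 2 sets, and the log2 ratio was -1.09, or -0.94 with median-of-ratios size factors. CCL5, a chemokine that attracts T cells, was at 0.243, 0.354, 0.601, 0.22 and 0.214 against 0 to 0.0259, with HTO3+HTO9 highest. CX3CL1, a membrane-bound chemokine, was at 0.495, 0.684, 0.355, 0.826 and 0.468 against 0.060, 0.0215, 0.0515, 0.0273 and 0.046. CCL7, a monocyte chemokine, was at 0.229, 0.427, 0.277, 0.322 and 0.24 against 0.10, 0.102, 0.0515, 0.171 and 0.118. CCL2, the most abundant monocyte chemokine here, was at 2.5, 3.17, 2.25, 3.41 and 2.32 against 1.6, 1.7, 0.584, 1.86 and 0.998, above without overlap at a ratio of 1.56-fold, and at 0.0361 to 0.121 in the reference. CCL28 and CXCL16 overlapped, at 0.0617 to 0.106 against 0.070 to 0.157 and at 0.177 to 0.267 against 0.0859 to 0.177.

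The 8 interleukins and colony-stimulating factors compared moved in both directions. IL32, a proinflammatory cytokine, stood at 15.5, 16.1, 14.2, 15.8 and 15.6 against 2.3, 2.55, 2.3, 2.18 and 1.98, with 0.483 to 0.848 in the reference. The sides lay 6.79-fold apart with little spread in either, and IL32 made up most of the list's sum of 18.5 to 19.4 against 4.89 to 6.19. IL15, which sustains T and NK cells, was at 0.347, 0.496, 0.462, 0.365 and 0.387 against 0.165, 0.188, 0.0687, 0.131 and 0.204. IL18, an IL-1 family cytokine, was lower, at 0.454, 0.357, 0.324, 0.418 and 0.508 against 0.903, 0.786, 0.618, 0.911 and 0.854. Its call, with medians 2.04-fold apart, was lost in 10 of the 24 alternatives. The reference levels of IL18, 0.783 to 1.18, overlapped those of the TNF side, unlike the reference levels of CXCL8 and CCL20. CSF2, which encodes GM-CSF, was also lower, at 0.00926, 0.0161, 0.0308, 0.0483 and 0.0267 against 0.060, 0.0916, 0.0515, 0.0942 and 0.236, which is 2 to 9 UMIs per hashed sample against 3 to 69, with HTO4+HTO8 well above the rest in level. IL1A, IL1B, CSF1 and LIF overlapped. IL1B was at 0.671, 0.413, 1.36, 0.59 and 0.548 against 0.268, 0.49, 0.55, 0.352 and 0.387, with HTO3+HTO9 highest, and CSF1 at 0.852 to 1.27 against 0.552 to 0.856. LIF was at 0.403 to 0.761 against 0.509 to 0.926, and IL1A at 0.0349 to 0.154 against 0.0325 to 0.103.

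Of 6 ligands of the TNF family, 3 were higher and 1 was lower. TNFSF10, which encodes the death ligand TRAIL, stood at 8.43, 13.2, 3.25, 7.3 and 7.68 against 1.0, 0.495, 0.189, 1.51 and 0.538. Both sides were widely spread, with HTO3+HTO6 highest and HTO3+HTO9 lowest on one and HTO3+HTO8 highest and HTO3+HTO5 lowest on the other, yet they did not overlap. TNFSF13B, the B cell factor BAFF, was at 1.53, 1.6, 0.863, 1.04 and 1.5 against 0.133, 0.0808, 0.0172, 0.184 and 0.151, and TNFSF14, or LIGHT, at 0.255, 0.37, 0.17, 0.236 and 0.16 against 0.090, 0.0808, 0.0172, 0.0915 and 0.0854. TNFSF15, or TL1A, was lower, at 0.0162, 0.0215, 0.0771, 0.0268 and 0.0401 against 0.173, 0.205, 0.172, 0.158 and 0.158, a small gene by level. Its reference levels of 0.0708 to 0.113 lay below those of the TNF side and overlapped those of the both-cytokine side. The share of cells with a UMI of TNFSF15 overlapped, at 6.12% to 12.2% on the TNF side and 6.53% to 9.86% in the reference. LTB, which encodes lymphotoxin beta, overlapped at 2.03, 1.79, 0.848, 0.762 and 1.76 against 2.93, 2.39, 1.29, 3.3 and 3.16. TNF itself was at 0.0349 to 0.134 against 0.0328 to 0.0575 and was listed at 0 in every reference sample.

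Survival genes were mixed. GADD45B, a stress-response gene, was the only higher one of 11, at 0.69, 0.644, 0.74, 0.531 and 0.761 against 0.195, 0.318, 0.447, 0.184 and 0.276. BIRC3, which encodes the inhibitor of apoptosis cIAP2, overlapped at 6.65, 7.94, 4.39, 6.48 and 8.51 against 8.54, 9.21, 4.74, 10.8 and 8.5. IER3 lay below without overlap, at 3.94, 3.57, 5.72, 4.77 and 5.49 against 7.08, 6.73, 7.27, 5.9 and 8.12, a TNF median 1.48-fold the both-cytokine one. Named after their values were seen, BCL2L1 also lay below, at 0.312 to 0.414 against 0.496 to 0.624, while BCL2A1, CFLAR and MCL1 lay above, with medians 1.99-fold, 1.57-fold and 1.72-fold those of the TNF side. BCL2A1, CFLAR and MCL1 oppose cell death, as do BCL2L1 and BIRC3, so members of 1 function stood on both sides of the median of all genes.

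Of 13 adhesion and costimulation genes, ICAM1, CD40 and NINJ1 were higher. ICAM1, the ligand of LFA-1 on T cells, stood at 15.4, 14.7, 13.0, 14.3 and 14.8 on the both-cytokine side, 5.21, 4.56, 2.83, 5.78 and 4.15 on the TNF side and 0.504 to 1.13 in the reference. The 3 sets of levels did not overlap, in the order reference, TNF, both cytokines, and the ratio of medians between the latter 2 was 3.23-fold. NINJ1, which ruptures the plasma membrane in lytic death, was at 6.3, 6.75, 4.89, 5.74 and 6.73 against 2.21, 2.07, 1.94, 2.35 and 2.17. CD40, a costimulatory receptor, was at 0.486, 0.566, 0.416, 0.44 and 0.481 against 0.195, 0.172, 0.137, 0.257 and 0.164. SDC4, a syndecan, overlapped at 3.82 to 5.07 against 3.79 to 4.9. CD58, the ligand of CD2 and named after its values were seen, lay below without overlap at 0.206, 0.145, 0.185, 0.166 and 0.0802 against 0.33, 0.334, 0.258, 0.302 and 0.355, just short of 2-fold.

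Of 24 secreted and metabolic NF-kB targets, 3 were higher and 1 was lower. SOD2, the mitochondrial superoxide dismutase and the most abundant, was at 25.5, 25.7, 20.9, 25.5 and 27.0 against 16.0, 14.9, 11.4, 16.8 and 13.8, above without overlap and 1.71-fold, with 1.39 to 1.8 in the reference. GCH1, the first enzyme of tetrahydrobiopterin synthesis, was at 1.72, 1.48, 0.91, 1.34 and 1.55 against 0.183, 0.205, 0.0859, 0.176 and 0.138. NNMT, which methylates nicotinamide, was at 4.62, 5.45, 3.81, 4.75 and 4.25 against 1.5, 1.1, 0.756, 1.45 and 1.24, and the metalloreductase STEAP4 at 0.0787, 0.156, 0.0462, 0.118 and 0.16 against 0 to 0.0328. LCN2, an iron-binding protein, overlapped at 7.82 to 17.9 against 9.34 to 19.8, with 6.88 to 18.4 in the reference. EHF, an epithelial ETS factor, was lower, at 0.0926, 0.161, 0.0462, 0.059 and 0.174 against 0.293, 0.323, 0.464, 0.343 and 0.322, while its reference levels of 0.386 to 0.619 overlapped or lay above those of the TNF side. PTX3, a pentraxin named after its values were seen, lay below without overlap at 1.81, 1.8, 2.13, 1.56 and 2.26 against 3.63, 2.67, 3.75, 2.97 and 3.0, with 0.204 to 0.727 in the reference.

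**Figure D2:**
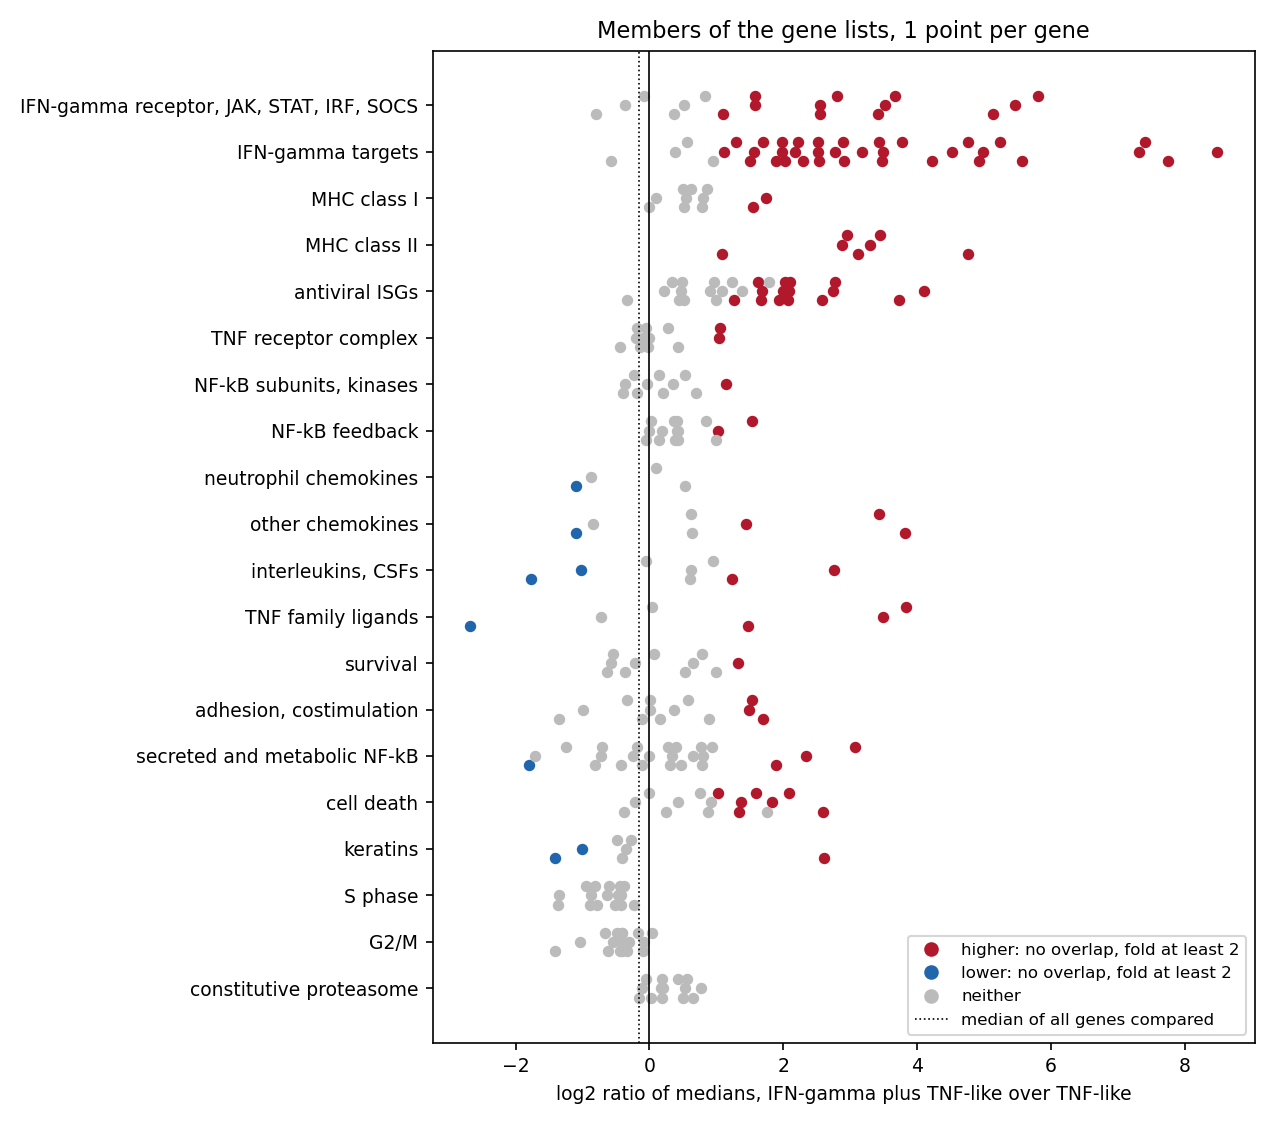
Log2 ratio of the side medians, IFN-gamma plus TNF-like over TNF-like, for each compared gene of 20 lists, 1 point per gene, with higher calls in red, lower calls in blue and other genes in grey; the dotted line is the median of all genes compared, -0.16. The interferon and MHC class II lists lie to the right, and the S phase and G2/M lists hold no called gene. Most NF-kB lists have medians to the right of the dotted line, while that of the neutrophil chemokines is -0.39. Among the NF-kB lists, lower calls lie only in the chemokine, interleukin, TNF family ligand, and secreted and metabolic lists.

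Of 16 death genes compared, 7 were higher and none lower, beside 3.16% and 1.51% of all genes compared. Their median log2 ratio was 0.97, against -0.16 over all genes. CASP8, the initiator caspase below death receptors, was at 2.95, 2.61, 1.94, 2.64 and 2.65 against 0.908, 0.942, 0.636, 0.741 and 0.696, and FAS, a death receptor, at 0.477, 0.424, 0.355, 0.477 and 0.454 against 0.15, 0.151, 0.0687, 0.132 and 0.151. BBC3, the BH3-only gene also called PUMA, was at 0.764, 1.01, 0.817, 0.778 and 0.775 against 0.245, 0.183, 0.155, 0.263 and 0.144. CASP1, the inflammatory caspase, was at 0.13, 0.177, 0.0617, 0.172 and 0.107 against 0.0131 to 0.0423. PMAIP1, or NOXA, lay above without overlap at 1.89-fold, and BID overlapped at 2.9 to 3.72 against 3.09 to 4.29.

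In the MHC class I list, 8 of 11 genes lay above without overlap, beside 6.03% of all genes compared. Only HLA-E and ERAP2 reached 2-fold, beside 3.16% of all genes. HLA-E, the ligand of NKG2A, was at 7.2, 7.15, 7.14, 6.78 and 7.35 against 2.15, 2.05, 1.77, 2.39 and 2.38. B2M, the light chain of MHC class I, was at 59.7, 62.6, 45.5, 59.9 and 65.0 against 34.5, 32.4, 23.7, 41.0 and 34.6. ERAP2, which trims peptides, was at 0.17 to 0.321 against 0.0657 to 0.0942. All 7 compared genes of the MHC class II list were higher. CD74, the invariant chain, was at 5.16, 4.66, 4.04, 4.76 and 5.56 against 0.655, 0.727, 0.103, 0.647 and 0.545, HLA-DRA at 0.727, 0.459, 0.509, 0.746 and 0.868 against 0 to 0.0575 and the protease CTSS at 0.984, 0.88, 0.617, 0.756 and 0.788 against 0.0172 to 0.112.

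Of 29 antiviral interferon-stimulated genes compared, 15 were higher and 14 overlapped, beside 3.16% of all genes compared that were higher. IFIT3 was at 7.04, 7.49, 3.9, 5.76 and 6.41 against 0.475, 0.205, 0.0687, 1.09 and 0.374 and IFIT2 at 1.64, 2.4, 0.54, 1.13 and 0.908 against 0.128, 0.0377, 0.0515, 0.397 and 0.0854, with HTO3+HTO8 highest on the TNF side in both. RNF213, a large ubiquitin ligase, was at 12.9, 9.81, 7.75, 11.0 and 11.0 against 1.82, 1.64, 1.07, 1.96 and 1.58, and SAMD9L at 1.94, 1.84, 1.63, 1.83 and 2.38 against 0.268, 0.302, 0.137, 0.279 and 0.243. ISG15, a ubiquitin-like protein, was at 19.8, 27.7, 17.7, 27.8 and 25.5 against 7.94, 7.26, 4.24, 11.9 and 9.21. IFI27, the most abundant of the list, overlapped, at 31.8, 40.5, 23.7, 39.1 and 38.4 against 25.6, 27.0, 12.7, 39.6 and 28.9. The summed list was 96.8, 116, 69.6, 107 and 105 against 46.9, 44.3, 23.2, 72.0 and 50.8, which overlapped through HTO3+HTO9 and HTO3+HTO8, and 25.9 to 63.0 in the reference.

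Programmes outside cytokine signalling are given beside the same shares of all genes, 3.16% higher and 1.51% lower. None of the 16 S phase genes and none of the 18 G2/M genes compared was called in either direction, and each gene overlapped. The summed S phase genes did not overlap, at 1.82 to 3.39 against 3.45 to 6.43. The summed G2/M genes overlapped, at 0.632 to 5.38 against 3.57 to 5.23, and all 18 compared G2/M genes were lowest of their side in HTO3+HTO9 or tied there. How often HTO3+HTO9 was lowest over all genes compared was not counted. UBE2C, a mitotic ubiquitin-conjugating enzyme, was at 0.505, 0.547, 0.185, 0.413 and 0.949 against 0.76, 0.867, 0.773, 0.68 and 0.814. No hypoxia gene, sterol gene or gene of the unfolded protein response was called, with LDHA at 5.47 to 9.66 against 6.07 to 12.5 and HSPA5 at 6.69 to 12.6 against 7.21 to 13.6. In the constitutive proteasome, 7 of 14 genes lay above without overlap and PSMB5 below, all under 2-fold. At any ratio, the shares of all genes compared were 6.03% above and 9.28% below. PSMA6 was at 8.89 to 10.6 against 5.94 to 7.81. Among immediate early and stress genes, ATF3 was higher at 0.579, 0.682, 0.231, 0.483 and 0.655 against 0.0875, 0.199, 0.12, 0.0737 and 0.0591, and ZFP36, which encodes the mRNA decay factor tristetraprolin, at 0.289, 0.343, 0.17, 0.225 and 0.347 against 0.103, 0.0485, 0.0172, 0.0737 and 0.0985. No gene of the separate list of mRNA decay factors and MAP kinase phosphatases was called, with ZFP36L1 at 1.62 to 3.64 against 3.18 to 3.54. No gene of the growth-arrest list was called. CCND1, placed in that list although it encodes cyclin D1, which drives the cell cycle, was at 4.94 to 5.98 against 4.71 to 6.53.

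The keratins differed among themselves. KRT17, a keratin of stressed and basal epithelium, was higher, at 1.53, 1.55, 2.0, 1.66 and 2.14 against 0.248, 0.312, 0.0687, 0.27 and 0.519, with 0.186 to 0.51 in the reference. KRT7 was lower, at 2.8, 2.71, 4.41, 2.45 and 3.62 against 5.8, 5.51, 5.62, 5.33 and 6.63, and so was KRT80, at 0.0154 to 0.0534 against 0.0687 to 0.108. The call of KRT7 was lost with median-of-ratios size factors, under which its medians differed less than 2-fold. The reference levels of KRT7, 6.43 to 8.89, reached above those of the TNF side. KRT8 and KRT18, the main pair of simple epithelium, were at 9.73 to 12.2 against 9.1 to 14.5 and at 15.1 to 19.4 against 17.6 to 25.9, and both overlapped.

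Outside all lists, the 12 higher genes of largest ratio at a mean level of at least 0.5 were HAPLN3, SAMHD1, MCUB, SNTB2, SP110, MSRB1, C5orf56, APOL2, ISG20, GRAMD2B, RNF24 and IFI16. HAPLN3, a link protein of matrix, was at 2.13, 2.19, 1.5, 1.89 and 2.1 against 0 to 0.102. SAMHD1, which hydrolyses dNTPs, was at 1.12, 1.18, 0.678, 0.831 and 0.962 against 0.13, 0.070, 0.0172, 0.187 and 0.0722, and ISG20, an exonuclease, at 11.8, 12.7, 12.1, 11.9 and 13.7 against 2.45, 2.43, 2.39, 3.53 and 2.76. The DNA sensor IFI16 was at 1.08 to 1.85 against 0.237 to 0.461. The ratios of the 12 ran from 4.52-fold to 35.5-fold, and C5orf56 lies next to IRF1, so that its value is uncertain.

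Among the 12 lower genes of largest ratio were DKK1, TSC22D1, ERRFI1, WWTR1, GPRC5A, ITPRID2, IRS1, ZFAND5, ABCC3, IMP3 and AQP3. DKK1, a secreted inhibitor of Wnt signalling, was at 0.181, 0.153, 0.493, 0.236 and 0.267 against 1.22, 1.38, 1.08, 0.733 and 1.44. TSC22D1, a TGF-beta-responsive factor, was at 0.965, 1.09, 1.45, 1.15 and 1.68 against 3.64, 4.0, 4.69, 3.63 and 3.37. ERRFI1, a feedback inhibitor of EGFR, was at 0.222, 0.467, 0.493, 0.333 and 0.347 against 0.89, 0.98, 1.2, 1.36 and 0.696, and WWTR1, the Hippo co-activator TAZ, at 0.468, 0.598, 0.385, 0.617 and 0.508 against 1.17, 1.42, 0.722, 1.32 and 1.27. IRS1, an adaptor of the insulin receptor, was at 0.40 to 0.57 against 0.848 to 1.4. In DKK1, TSC22D1 and WWTR1 the TNF levels overlapped those of the reference, 0.97 to 1.86, 2.74 to 4.65 and 1.34 to 1.8, and the both-cytokine levels lay below both. With median-of-ratios size factors IRS1, ZFAND5, ABCC3, IMP3 and AQP3 stayed lower but under 2-fold.

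**Figure D3:**
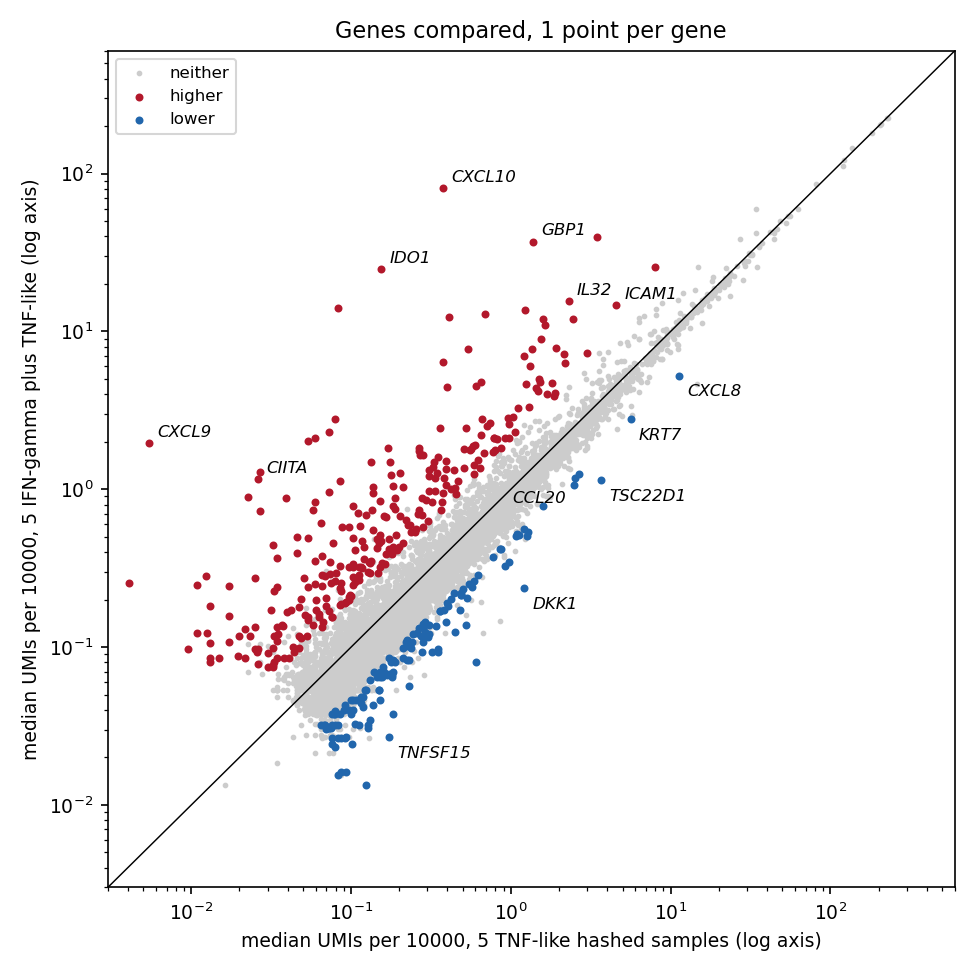
Median level in UMIs per 10000 of each gene compared in the 5 TNF-like hashed samples (x, log axis) and in the 5 IFN-gamma plus TNF-like hashed samples (y, log axis), with a line of equality; 3 genes with a median of 0 are not drawn. The 290 higher genes (red) reach far above the line, CXCL10 and IDO1 among them, and the 139 lower genes (blue) lie closer to it.

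Of the higher genes, 204 of 290 had a RefSeq window, and 45 of these held an ISRE match and 31 a GAS match. Of the lower genes, 102 of 139 had one, and 0 held an ISRE match and 4 a GAS match. Over the 7334 genes compared that had a window, 3.08% held an ISRE match and 6.52% a GAS match, and a match is a description and not a site. The higher genes include 34 IFN-gamma targets, which chose the sides, so nothing is read from their ISRE and GAS shares. Of the 40 listed targets, 28 had a window, and 17 of these held an ISRE match and 6 a GAS match. A kB match was held by 36 of the 204, by 14 of the 102 and by 13.3% of the genes compared. Of the 88 TNF and NF-kB members compared, 67 had a window, and 6 of these held an ISRE match and 11 a GAS match. Among the called members, the windows of TNFSF10, TNFSF13B and TNFSF14 held an ISRE match, and those of ICAM1, CCL7, STEAP4 and CSF2 a GAS match. Of these 7 called genes, CSF2 was lower. The other 3 ISRE and 7 GAS matches lay in members that were not called.

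Cells were then thinned to 5000 UMIs each so that shares of cells with a UMI could be compared, which left out 64, 96 and 56 shallower cells of the both-cytokine side, the TNF side and the reference. CXCL10 was seen in 91.8% to 98.6% of cells in the hashed samples of the both-cytokine side and in 6.67% to 12.8% of those of the TNF side, and unthinned in 94.3% to 98.3% and 10.2% to 23.4%. In the reference the share was 5.8% to 10.4% at a like depth. The TNF side overlapped it only through HTO3+HTO5, at 6.67%, or 3 of 45 cells. The other TNF hashed samples, at 11.9% to 12.8%, lay above it. CXCL8 was seen in 55.6% to 77.6% of cells on the both-cytokine side and 75.7% to 84.6% on the TNF side, with 7.51% to 15.2% in the reference. The sides overlapped in this share only through HTO3+HTO9, at 77.6% (exact 95% interval 63.4% to 88.2%, counting error only). Cells with CXCL8 held 3.06 to 6.47 UMIs of it on the both-cytokine side and 6.59 to 8.33 on the TNF side. Both the share and the amount per positive cell were thus lower in 4 of 5 hashed samples, and the amount in 5 of 5. Unthinned, the shares were 67.2% to 86.8% and 85.6% to 89.7%.

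The other genes differed in shares or in amounts. CCL20 was seen in 20.4% to 35.6% against 31.1% to 42.8% of cells, with 2.92% to 13.6% in the reference. IL32 was seen in 91.8% to 98.3% against 49.9% to 58.3%, and in positive cells at 7.53 to 8.81 against 2.0 to 2.28 UMIs. ICAM1 was seen in 94.4% to 98.0% against 64.4% to 81.3%, and at 6.85 to 8.25 against 2.34 to 3.5 UMIs. NFKBIA was near saturation on both sides, in 91.8% to 98.3% against 82.2% to 96.6% of cells, at 9.06 to 10.7 against 6.27 to 8.84 UMIs. KRT17 was seen in a minority even where it was higher, 20.9% to 32.2% against 0% to 7.69%. The unthinned shares were 32.6% to 43.8% against 48.9% to 55.6% for CCL20, 95.0% to 99.4% against 63.3% to 73.8% for IL32, 96.5% to 98.4% against 81.6% to 89.7% for ICAM1, 96.2% to 98.4% against 85.7% to 97.6% for NFKBIA and 25.4% to 32.8% against 6.12% to 12.2% for KRT17. On the both-cytokine side, 94.7% to 99.5% of cells with a CXCL8 UMI also held CXCL10, beside 91.8% to 98.6% of all cells there, so that nothing is read from this about which cells held CXCL8.

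**Figure D4:**
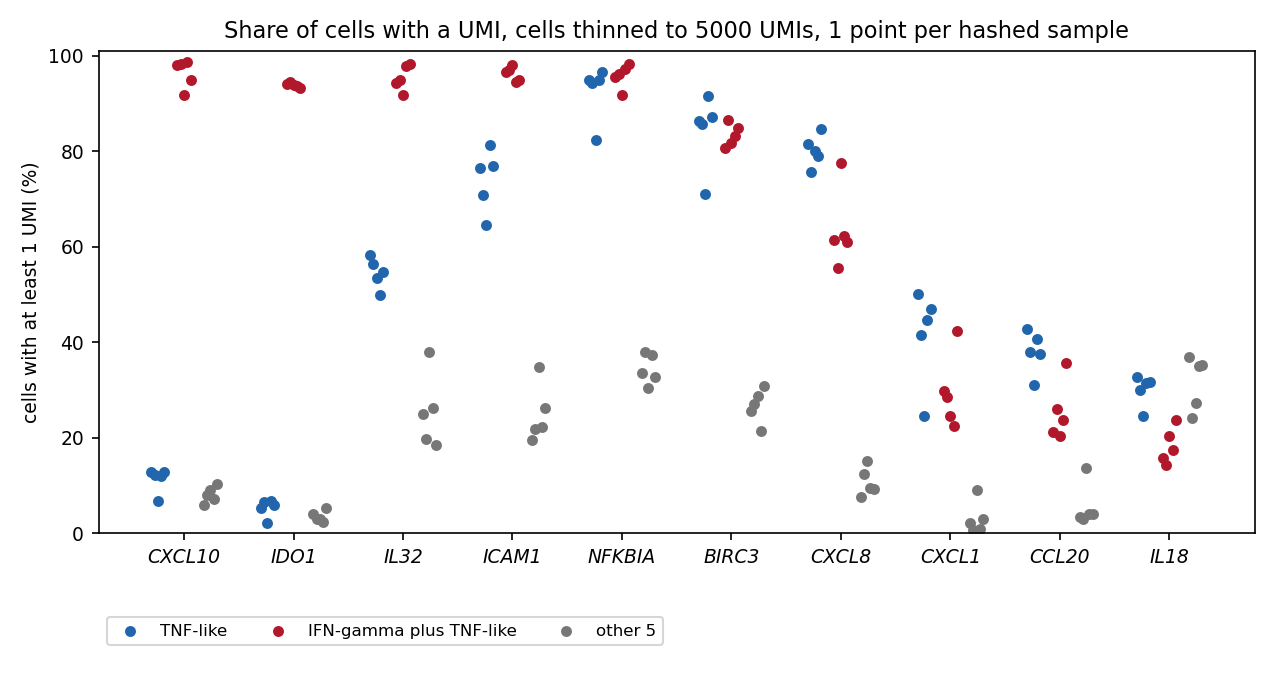
Share of cells (%) with at least 1 UMI of 10 genes after thinning to 5000 UMIs per cell, 1 point per hashed sample, for the TNF-like (blue), IFN-gamma plus TNF-like (red) and other 5 (grey) hashed samples. CXCL10 and IDO1 separate red from blue almost fully, IL32 and ICAM1 are higher in red, NFKBIA and BIRC3 are high in both, and CXCL8, CXCL1, CCL20 and IL18 are lower in most red points.

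High levels of IFN-gamma targets were spread over most cells of the both-cytokine side. Since these genes chose the sides, nothing is read from the gap between the sides in this measure. Summed over the IFN-gamma targets, 857 of 919 cells there held at least 100 UMIs per 10000, or 88.7% to 96.9% by hashed sample, against 11 of 1277 on the TNF side and 6 of 948 in the reference. Near that value, 45 cells of the both-cytokine side and 19 of the TNF side held 80 to 120. The removed barcodes, with under 1000 genes or over 20% mitochondrial UMIs, gave CXCL8 at 2.17 to 5.48 against 5.43 to 8.58, overlapping, and CXCL10 at 16.6 to 58.7 against 0.347 to 0.521.

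The 2 smallest hashed samples were also looked at by themselves. HTO3+HTO9, with 53 cells, was the lowest of the both-cytokine side in 27 of 38 IFN-gamma targets. HTO3+HTO5, with 49 cells, was the lowest of the TNF side in 29 of 38 of them and in 52 of 88 TNF and NF-kB members. How often each was lowest over all genes compared was not counted, so nothing is read from these counts. Without these 2 hashed samples, a choice made after seeing the data, 17 TNF and NF-kB members were higher and 10 lower. CD58, F3, MMP7 and PTGS2 were added to the 6. CXCL8 was called in the absence of HTO3+HTO9 but not of HTO2+HTO7 or of HTO3+HTO6. Markers of other cell types, all human genes, since counts of mouse genes were not analysed here, were at or near 0 for most types. Of 12 T and NK cell markers 9 were at 0 in the 10 hashed samples, all 5 erythroid markers were at 0, and the summed myeloid markers, 2 of 9 at 0, were at 0.365 to 0.593 against 0.326 to 0.612. The summed endothelial markers, 1 of 7 at 0, were at 0.44 to 0.555 against 0.447 to 0.584, nearly all of it EGFL7, and those of fibroblasts, 1 of 8 at 0, were at 0.0534 to 0.0778 against 0.0108 to 0.0751. Those of B cells, 2 of 6 at 0, were at 0 to 0.0107 against 0 to 0.00546, and the part of any of these in the results was not tested. Of 13 epithelial markers 11 were compared, and 1, KRT7, was lower and none higher, with a median log2 ratio of -0.49. Their sum was 41.7 to 50.1 on the both-cytokine side, 46.4 to 68.7 on the TNF side and 74.1 to 91.7 in the reference. EPCAM, an epithelial adhesion molecule, was at 3.87 to 4.61 against 2.92 to 4.41, while CDH1, which encodes E-cadherin, was at 0.0161 to 0.0935 against 0 to 0.0657, MUC1 at 0.0154 to 0.157 against 0.0485 to 0.223 and MUC16, which encodes CA125, at 0 to 0.0668 against 0 to 0.0131. Keratins and EPCAM were thus present on both sides, and in at least 1 hashed sample CDH1 and MUC16 were at 0.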

How the data were processed

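One 10x Genomics 3' gene expression library and 1 hashtag library were made from 1 pool of cells. The authors deposited raw UMI counts of 36601 genes and 10 hashtags in 5269 barcodes. The file headers name Cell Ranger 5.0.1 and the submitters' processing notes Cell Ranger 2.1.1 with GRCh38, a difference that was not resolved. Cells with at least 1000 genes and at most 20% mitochondrial UMIs were kept. No doublet caller was run, and 394 kept cells without a clear pair were left out. Counts were summed per hashed sample and scaled to 10000 UMIs. Genes were called as described above, with a median of 0 set to the level of 3 counts, and the call rule was checked on simulated counts with known folds, from which no value is given. Intervals are exact binomial at 95% and cover counting error only.

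The members, sides and gene lists were chosen with earlier results of these data known. Named were the 3 markers, every compared member of the feedback, chemokine, interleukin and TNF family lists, in other lists the 4 called genes of largest ratio in each direction and the 2 of highest mean, and outside the lists 12 in each direction at a mean of at least 0.5. CD58, PTX3, BCL2A1, BCL2L1, CFLAR, MCL1, ICOSLG, PSMB5, F3, MMP7, PTGS2, EPCAM, CDH1, MUC1, MUC16 and the uncalled members of other lists were named after their values were seen. Some genes that this rule picks are not reported here. RefSeq promoter windows (GRCh38.p14) were matched by symbol, the first window of a gene being used. Alternatives covered scaling, cell filter, hashtag rule, depth, level minimum, fold, and leaving out each hashed sample. Python 3.11.15, numpy 2.4.6 and pandas 2.3.3 were used.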

Additional observations from a re-analysis of the deposited data

Results flagged for a closer look

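A hashed sample was picked out when its gap to the nearest of the other 4 of its side, divided by the range of the 5, was above Dixon's critical value of 0.71. This met 31 of 332 groups of 5 levels looked at, in 27 lists and 139 genes, where chance gives about 1 in 20. The 2 smallest hashed samples held 15 of them, 8 in HTO3+HTO5 and 7 in HTO3+HTO9. The part of cell number in this was not tested.

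HTO3+HTO5 was the lowest of the TNF side in the MHC class II list (0.292), JAK2 (0.0172), CTSS (0.0172), NFKB1 (1.15), TNFAIP3 (1.82), TNFSF14 (0.0172), FAS (0.0687) and CCND1 (4.71). A level of 0.0172 there is 1 UMI. HTO3+HTO9 was the lowest of the both-cytokine side in the death gene list (15.4), B2M (45.5), NFKBIE (0.262) and SOD2 (20.9), and its highest in IL1B (1.36), F3 (1.39) and ITPRID2 (1.48). HTO3+HTO9 thus stood apart upward and downward, and HTO3+HTO5 only downward in these lists and genes.

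On the both-cytokine side HTO4+HTO9 was highest in the receptor complex list (8.58), the survival list (27.9), ZC3H12A (0.401), CSF1 (1.27) and PMAIP1 (3.09). HTO3+HTO6 was highest in the keratin list (45.0), BID (3.72), BBC3 (1.01) and PSMA6 (10.6). On the TNF side HTO2+HTO10 was highest in the interleukin list (6.19) and CSF1 (0.856), and HTO4+HTO8 was highest in CSF2 (0.236) and lowest in MSRB1 (0.131). HTO3+HTO8, the largest hashed sample with 630 cells, was highest in IFIT2 (0.397) and APOL2 (0.538) and lowest in ITPRID2 (2.00).

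The barcodes removed by the cell filter are not the base of any comparison above. Among 1073 of them with a pair of the 10 hashed samples, the IFN-gamma target list had a log2 ratio of 2.85. These barcodes carry the same pairs, and such genes chose the sides, so nothing is read from this ratio.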

How the results depend on the processing

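No alternative turned the direction of any of the 79 called genes named here. The other called genes were not checked for this. Genes lower on the both-cytokine side numbered 66 with median-of-ratios size factors, 19 at a mean level of at least 0.5, 235 with no level minimum, 399 at a fold of at least 1.5, 46 in removed barcodes only and 214 without HTO3+HTO9 and HTO3+HTO5; higher genes numbered 115 at a mean level of at least 0.5 and 180 in removed barcodes. Lower TNF and NF-kB members numbered 2 with size factors, 2 in cells thinned to 5000 UMIs, 3 at a mean level of at least 0.5, 3 in removed barcodes and 10 without the 2 small hashed samples, and higher members 9 at that minimum and 10 in removed barcodes. The log2 ratio of the summed TNF and NF-kB list was 0.51 with size factors, and that of the IFN-gamma target list 2.85 in removed barcodes. Leaving out 1 hashed sample gave 285 to 315 higher and 143 to 182 lower genes, 16 to 20 higher and 4 to 7 lower members, and log2 ratios of 0.28 to 0.38 and 3.14 to 3.23 for the 2 lists. CXCL8 was no longer called with size factors, after thinning, without HTO2+HTO7, without HTO3+HTO6 or in removed barcodes. CCL20 was lost under size factors, thinning, the mean in place of the median, in removed barcodes and without HTO2+HTO7, HTO3+HTO9, HTO2+HTO10, HTO3+HTO8 or HTO4+HTO8. IL18 was lost under size factors, totals without the response lists, the looser cell filter, thinning, the mean, in removed barcodes and without HTO3+HTO6, HTO3+HTO9, HTO2+HTO6 or HTO3+HTO8. CSF2 was lost under size factors, at a mitochondrial limit of 15%, after thinning, without HTO4+HTO8, at the higher level minimum and in removed barcodes. TNFSF15 was lost after thinning, and both TNFSF15 and EHF at the higher level minimum and in removed barcodes. Of the higher members, TNFAIP8 was lost in 5 alternatives, GADD45B and TNFSF14 at a mitochondrial limit of 15%, TNFSF14 also after thinning, and CCL7 under the looser cell filter, beside those lost at the higher level minimum and in removed barcodes. With size factors the 4 lost were CXCL8, CCL20, IL18 and CSF2, and TNFSF15 and EHF were called again; the cause was not tested. No paired analysis was possible because no label ties a hashtag pair to a tumour or a replicate number. With 49 to 64 cells in the smallest hashed samples, genes near the minimum level rest on a few UMIs. The alternatives on removed barcodes, on cells placed by their IFN-gamma targets and without the 2 small hashed samples were chosen after seeing the data.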
